A study of Mus musculus and Rattus norvegicus with 32 samples.

Results

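The 10 genes described here are markers of macrophages, namely Adgre1, Csf1r, Cd14, Mrc1, Cd163, Cd68, Lyz2, C1qa, C1qb and C1qc. They were selected in the tables by symbol, with earlier results of these data known, and every one of them was found in all 4 count tables. They are 10 of the 55487 genes listed for the mouse hearts and 10 of the 32883 listed for the rat cells. RNA sequencing was performed on 32 libraries in 8 groups of 4, and each count table holds 2 of the groups. METTL5 is the methyltransferase that places m6A on the 18S ribosomal RNA, and the study asked what its loss or excess does in the heart. All mice were of the C57BL/6 strain. The first table compares whole hearts of 1-month-old METTL5-KO mice, which lack the gene in every tissue, with those of control littermates. The second compares hearts of 3-month-old METTL5-cKO mice with controls. In METTL5-cKO mice, floxed METTL5 is removed by Cre under the Myh6 promoter, which is active in cardiomyocytes, so the macrophages of these hearts are not a target of the Cre. The third table holds METTL5-cKO and control hearts collected 4 weeks after transverse aortic constriction (TAC), a surgical narrowing of the aorta that loads the left ventricle with pressure. Their age label is 3 months, and no sham-operated hearts are in the tables used here. The genotype field of the hearts titled cKO reads KO, and the alleles of the controls are not given in the sources used here. The fourth table holds neonatal rat ventricular myocytes (NRVMs) of Sprague Dawley rats at postnatal day 2, a primary culture that was pre-plated to remove fibroblasts. They received an adenovirus carrying human METTL5 (AdMETTL5) or GFP (AdGFP), and both groups were treated with 20 μM phenylephrine (PE), a hypertrophic agonist, for 24 h.

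Macrophages are phagocytes that live in every tissue. In the heart, a resident population seeded in development is supplemented after injury by monocytes that leave the blood and differentiate in the tissue. They depend on the growth factors CSF1 and IL34, which act through the receptor encoded by Csf1r. They clear dying cells and debris, secrete complement, and exchange signals with fibroblasts and cardiomyocytes. The 10 genes fall into 3 roles. Adgre1 encodes the adhesion receptor F4/80, Cd14 the co-receptor that hands lipopolysaccharide to TLR4, Mrc1 the mannose receptor CD206 and Cd163 the scavenger receptor for haemoglobin bound to haptoglobin, so that with Csf1r there are 5 surface receptors. Cd68 encodes a glycoprotein of the lysosomal membrane and Lyz2 the antibacterial enzyme lysozyme, which is also made by monocytes and neutrophils. C1qa, C1qb and C1qc encode the 3 chains of C1q, the recognition unit that starts the classical complement pathway, and tissue macrophages are its main source.

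In the mouse genome (GRCm38), the C1q genes lie next to each other on the minus strand of chromosome 4. C1qb spans chr4:136880129-136886187, C1qc chr4:136889804-136893065 and C1qa chr4:136895917-136898803. Of the lysosomal genes, Cd68 lies at chr11:69664213-69666153 and Lyz2 at chr10:117277331-117282321, both on the minus strand. Among the receptors, Adgre1 lies at chr17:57358691-57483527, Mrc1 at chr2:14229392-14332057 and Cd163 at chr6:124304656-124330527, all on the plus strand. Mrc1 holds the microRNA gene Mir511. Lyz2 has a close paralogue, Lyz1, whose reads may be split with it.

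The promoters of 6 of the 10 genes, as windows of 300 bases that span the start of the gene, were found in RefSeq sequence of GRCm38.p6. Those of 4 genes are shown because their transcripts are followed through all mouse groups: Mrc1 and Lyz2, which were higher in METTL5-cKO hearts after TAC, and the neighbours C1qb and C1qc. Capitals mark GAGGAA, a site bound by PU.1, a transcription factor of the macrophage lineage, on either strand (TTCCTC on the reverse strand).
Mrc1, chr2:14229164-14229463, plus strand: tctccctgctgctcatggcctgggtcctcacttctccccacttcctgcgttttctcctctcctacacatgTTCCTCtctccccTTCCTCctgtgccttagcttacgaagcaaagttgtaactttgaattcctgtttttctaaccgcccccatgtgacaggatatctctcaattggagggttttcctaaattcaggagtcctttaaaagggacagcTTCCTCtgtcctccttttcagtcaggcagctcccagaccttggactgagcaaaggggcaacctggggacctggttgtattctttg
Lyz2, chr10:117282223-117282522, minus strand: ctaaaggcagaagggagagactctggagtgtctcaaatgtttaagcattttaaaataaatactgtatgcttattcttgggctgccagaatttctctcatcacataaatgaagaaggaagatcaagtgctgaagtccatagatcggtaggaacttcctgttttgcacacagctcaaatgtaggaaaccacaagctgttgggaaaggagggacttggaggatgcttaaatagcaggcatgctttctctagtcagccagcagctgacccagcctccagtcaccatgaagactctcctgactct
C1qb, chr4:136886151-136886450, minus strand: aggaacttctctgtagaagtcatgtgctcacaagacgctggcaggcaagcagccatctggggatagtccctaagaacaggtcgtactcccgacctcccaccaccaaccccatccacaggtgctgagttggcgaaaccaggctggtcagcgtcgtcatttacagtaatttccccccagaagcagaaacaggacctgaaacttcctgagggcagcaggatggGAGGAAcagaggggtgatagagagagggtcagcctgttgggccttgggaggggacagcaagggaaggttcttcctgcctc
C1qc, chr4:136892865-136893164, minus strand: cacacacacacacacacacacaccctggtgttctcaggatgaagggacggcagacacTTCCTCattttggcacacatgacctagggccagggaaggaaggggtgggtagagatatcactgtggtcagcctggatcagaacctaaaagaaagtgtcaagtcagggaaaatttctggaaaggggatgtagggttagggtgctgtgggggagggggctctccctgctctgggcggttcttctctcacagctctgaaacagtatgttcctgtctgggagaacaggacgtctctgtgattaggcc
The Mrc1 window holds 3 matches, all on the reverse strand, and those of C1qb and C1qc hold 1 each. No match lies in the Lyz2 window, which says only that these letters are not in it. GAGGAA is present in the windows of 4 of the 6 genes (Mrc1, Cd68, C1qb and C1qc), beside 28.3% of the 32851 promoters of the same length. TGAGTCA, the AP-1 motif, which reads TGACTCA on the reverse strand, is present in 1 of the 6, that of Cd68, and in 5.2% of all. No site of one motif overlaps a site of the other. A match is a description of the sequence and not evidence of binding.

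Total counts were between 19899033 and 21804907 in the mouse libraries and between 14324700 and 18085339 in the rat libraries, with AdMETTL5 below AdGFP throughout. Levels are given as CPM, the count of a gene relative to the library size, with library sizes scaled by edgeR's TMM method, jointly over the 24 mouse libraries and separately over the 8 rat libraries. Libraries are numbered 1 to 4 within a group, and the numbers do not link groups. The labels do not say that libraries of a group came from separate animals or cultures, so p-values measure the spread between these libraries, which may be partly technical. The count of the whole Mettl5 gene, the target, did not separate the genotypes. It was 5.45 ± 0.742 CPM in controls and 6.36 ± 0.904 in METTL5-KO hearts at 1 month (SD, n = 4), 7.11 ± 0.489 and 6.28 ± 0.706 in control and METTL5-cKO hearts at 3 months, and 6.52 ± 0.717 and 6.44 ± 0.750 after TAC. A count over the whole gene cannot show the loss of a part of it, and counts by exon were not used here. In this report the genotypes are therefore taken from the labels. In NRVMs the rat Mettl5 gene was at 17.0 ± 0.774 CPM with AdGFP and at 21.2 ± 1.76 with AdMETTL5. Whether reads of the human METTL5 insert were counted in it was not tested. Control library 1 at 1 month stood apart. It was the highest of its group for 10 of the 10 markers, its 6 neutrophil markers summed to 61.4 CPM against 2.11 to 5.12 in the other 3, and its 8 cardiomyocyte markers summed to 22205 CPM against 26923 to 35901. Results at 1 month are therefore given with and without it.

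All 10 markers were detected in every mouse library, with between 9 counts (Cd14) and 2993 counts (Lyz2) in a library. To compare genes with each other, levels were divided by the exonic length (CPM per kb). On that scale Lyz2 was the most abundant in 5 of the 6 mouse groups, followed by C1qa, C1qb and C1qc in that order. The exception was the METTL5-KO group at 1 month, where C1qa came before Lyz2. In control hearts at 3 months Lyz2 was at 48.1 ± 10.6 CPM per kb, C1qa at 29.6 ± 3.14, C1qb at 26.0 ± 3.69 and C1qc at 13.03 ± 1.02. The surface receptors were lower per length, with Csf1r at 3.75 ± 0.539, Mrc1 at 1.96 ± 0.494, Cd163 at 1.85 ± 0.388, Cd14 at 1.22 ± 0.793 and Adgre1 at 1.10 ± 0.171 CPM per kb, while Cd68 was at 3.69 ± 0.824. Lysozyme and C1q, the secreted products, thus made up the upper end of the marker levels, and the receptors the lower end. In METTL5-cKO hearts after TAC, Lyz2 was again first with 85.3 ± 6.38 CPM per kb and Adgre1 last with 2.39 ± 0.316.

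**Figure D1:**
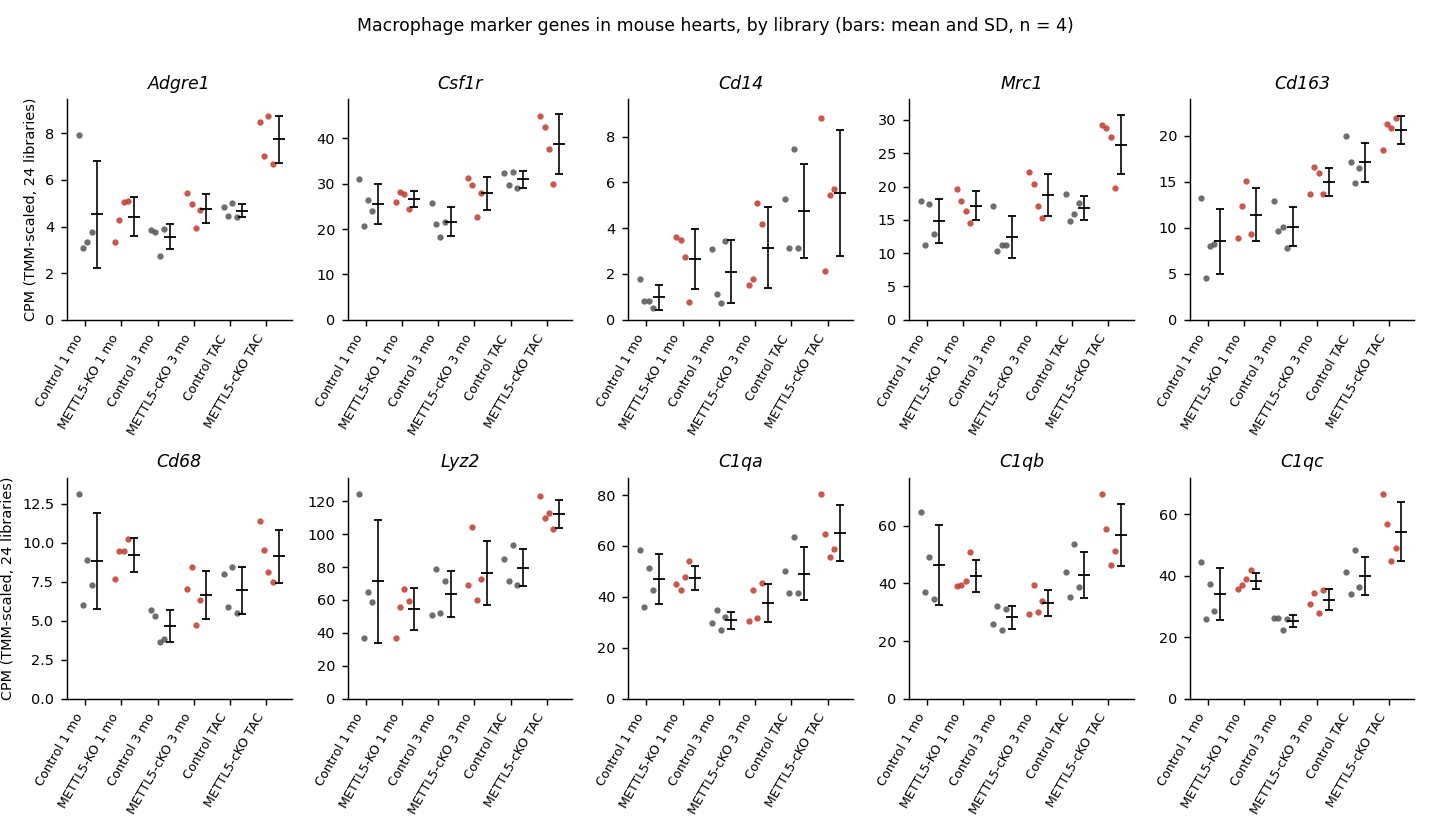
Level of each of the 10 macrophage markers (CPM, linear axis from 0) in the 6 mouse groups. Dots are libraries (4 per group), bars the mean ± SD, grey the controls and red the METTL5-KO or METTL5-cKO hearts. The mean was highest in METTL5-cKO hearts after TAC for 9 of the 10 genes.

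Across the 6 mouse groups the mean level was highest in METTL5-cKO hearts after TAC for 9 of the 10 markers, and for Cd68 in METTL5-KO hearts at 1 month. It was lowest in control hearts at 3 months for 7, in controls at 1 month for Cd14 and Cd163, and in METTL5-KO hearts at 1 month for Lyz2. The highest group mean was between 1.79 times (Csf1r) and 5.62 times (Cd14) the lowest. When the groups of a gene are put in order, 47 of the 50 pairs of neighbouring groups overlap in their libraries, so neighbours in the order were mostly not separated. The exceptions were Adgre1 between METTL5-cKO at 3 months and METTL5-cKO after TAC, Lyz2 between control and METTL5-cKO after TAC, and C1qc between control and METTL5-cKO at 3 months.

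The comparison after TAC sets METTL5-cKO against control hearts when both were under pressure overload. All 10 markers had a positive log2 fold change, and 3 of the 10 were higher in METTL5-cKO hearts at an adjusted p under 0.05: Adgre1, Mrc1 and Lyz2, by 1.64, 1.55 and 1.39 times. Of all genes tested in this comparison, 6.57% were called higher by the same rule, and 49.4% had a positive log2 fold change. By the quasi-likelihood test of edgeR, with p-values adjusted over all genes, none of the markers was past an absolute log2 fold change of 1 as well, beside 2.90% of all genes. In the 3 that were called, every METTL5-cKO library lay above every control, as for 9.41% of all genes. The median log2 fold change of the markers was 0.39, beside -0.0035 over all 16340 genes tested. In a bulk sample, more or fewer macrophages and more or less of these RNAs per macrophage cannot be told apart.

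Among the surface receptors, Adgre1 (F4/80) was at 4.84, 4.46, 4.99 and 4.41 CPM in control libraries 1 to 4 and at 8.48, 7.03, 8.73 and 6.69 in METTL5-cKO libraries. The lowest METTL5-cKO library was above the highest control. The log2 fold change was 0.71 (SE 0.113, 95% interval 0.46 to 0.97, adjusted p = 0.00953 by edgeR, exact p = 0.0286). Mrc1 (CD206) was at 18.9, 14.8, 15.8 and 17.5 CPM in control hearts and at 29.3, 28.7, 27.4 and 19.8 in METTL5-cKO hearts. Library 4 of the METTL5-cKO group was close to the controls, though above each of them, and the other 3 were well apart. Its log2 fold change was 0.64 (SE 0.132, interval 0.34 to 0.93, adjusted p = 0.0186, exact p = 0.0286).

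The other 3 receptors did not pass the threshold. Csf1r lies on the plus strand at chr18:61100598-61132149 and overlaps Hmgxb3 on the opposite strand. Whether counting used strand is not stated, so reads of these genes may not be told apart. Csf1r was at 32.5, 29.7, 32.7 and 29.01 CPM in control hearts and at 44.9, 42.5, 37.7 and 29.8 in METTL5-cKO hearts. Its groups overlapped through METTL5-cKO library 4 alone, and the log2 fold change was 0.31 (SE 0.120, adjusted p = 0.115, exact p = 0.0857). For Cd163 the control libraries had 19.9, 17.1, 14.9 and 16.5 CPM and the METTL5-cKO libraries 18.5, 21.3, 20.8 and 21.95, with a log2 fold change of 0.25 (SE 0.103, adjusted p = 0.125). Here METTL5-cKO library 1, the highest of its group for 8 of the 10 markers, was the lowest. Cd14, at chr18:36725067-36726798 on the minus strand, ranged from 3.14 to 7.47 CPM in controls and from 2.14 to 8.83 in METTL5-cKO hearts, and its log2 fold change of 0.21 had an interval of -0.69 to 1.11 (adjusted p = 0.769), so a difference in either direction of up to about that size was not resolved.

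Of the lysosomal genes, Lyz2 was at 84.96, 71.7, 93.4 and 68.8 CPM in control hearts and at 123.3, 110.0, 112.6 and 103.1 in METTL5-cKO hearts. The groups did not overlap, and the log2 fold change was 0.48 (SE 0.107, interval 0.24 to 0.72, adjusted p = 0.0232, exact p = 0.0286). Its paralogue Lyz1 was at 15.2 ± 2.15 CPM in control and 21.5 ± 2.35 in METTL5-cKO hearts. Cd68 was at 7.998, 5.87, 8.48 and 5.49 CPM in control hearts and at 11.4, 9.53, 8.10 and 7.51 in METTL5-cKO hearts. These groups overlapped, and the log2 fold change of 0.38 (SE 0.175) had an adjusted p of 0.176.

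The C1q chains had like profiles over the libraries. C1qa was at 50.3, 41.4, 63.5 and 41.3 CPM in control hearts and at 80.6, 64.8, 55.8 and 58.9 in METTL5-cKO hearts. C1qb was at 44.0, 35.3, 53.9 and 38.8 CPM against 71.2, 58.8, 46.5 and 51.2, and C1qc at 41.1, 34.2, 48.2 and 36.4 CPM against 66.7, 56.9, 44.8 and 48.9. In each chain control library 3 and METTL5-cKO library 1 were the highest of their groups, and the overlap of the groups came from control library 3 alone. The log2 fold changes were 0.39 for C1qa (adjusted p = 0.130), 0.39 for C1qb (adjusted p = 0.127) and 0.43 for C1qc (SE 0.143, adjusted p = 0.0772), none of which passed. Over all roles, 8 of the 10 markers had an unadjusted p under 0.05, beside 31.0% of all genes.

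The calls of Mrc1 and Lyz2 changed with single libraries. Leaving out control library 2, control library 4 or METTL5-cKO library 2 left 1 call, Adgre1, while leaving out METTL5-cKO library 4 made 4, as Csf1r (log2 fold change 0.42, adjusted p = 0.00868) then passed. With scaling by library size alone, which moves the median of all genes by 0.15 on the log2 scale, 5 markers were called, with Cd163 (0.40) and C1qc (0.57) added. The share of all genes called in these refits was not counted.

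**Figure D2:**
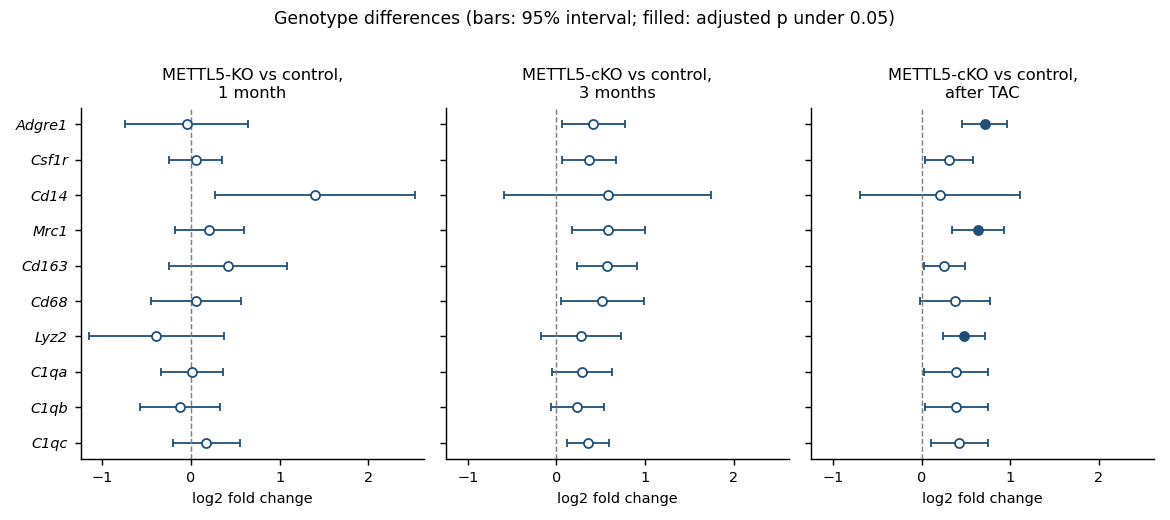
Log2 fold change of each macrophage marker (points, with 95% intervals) for METTL5-KO against control at 1 month and METTL5-cKO against control at 3 months and after TAC. Filled points have an adjusted p under 0.05. The filled points are Adgre1, Mrc1 and Lyz2 after TAC, at 0.71, 0.64 and 0.48.

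At 3 months without surgery, none of the 10 markers was called by edgeR (0 by DESeq2), and 6 had an unadjusted p under 0.05, beside 7.05% of the 16391 genes tested. Few genes were called at all, 0.0732% of those tested. The log2 fold change was positive for 10 of the 10 markers, beside 50.3% of all genes, with a median of 0.39 and a range from 0.24 (C1qb) to 0.59 (Mrc1). For 3 markers, Adgre1, Cd163 and C1qc, every METTL5-cKO library lay above every control library, as for 2.19% of all genes.

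Cd163 was at 12.9, 9.62, 10.1 and 7.75 CPM in control hearts and at 13.7, 16.6, 15.9 and 13.7 in METTL5-cKO hearts at 3 months. Its log2 fold change was 0.57 (SE 0.153, interval 0.23 to 0.91, adjusted p = 0.358, exact p = 0.0286, the smallest that 4 against 4 libraries allow). Adgre1 was at 3.87, 3.77, 2.74 and 3.90 CPM against 5.46, 4.95, 3.95 and 4.70, with a log2 fold change of 0.42 (SE 0.158, adjusted p = 0.613). The separation was narrow, since the lowest METTL5-cKO library had 3.95 and the highest control 3.90. C1qc was at 26.3, 26.3, 22.2 and 25.9 CPM against 30.9, 34.3, 27.9 and 35.5, with a log2 fold change of 0.36 (SE 0.107, adjusted p = 0.452). Mrc1 was at 17.2, 10.3, 11.3 and 11.2 CPM in control hearts and at 22.2, 20.4, 17.1 and 15.2 in METTL5-cKO hearts, with the overlap due to control library 1 (log2 fold change 0.59, SE 0.182, adjusted p = 0.479).

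The groups of the remaining 6 markers overlapped as well. Csf1r was at 25.7, 21.1, 18.2 and 21.6 CPM in control and at 31.3, 29.6, 22.8 and 28.0 in METTL5-cKO hearts (log2 fold change 0.37, SE 0.134, adjusted p = 0.597). Cd68 ranged from 3.66 to 5.72 CPM in control and from 4.74 to 8.45 in METTL5-cKO hearts, and Lyz2 from 50.9 to 78.9 against 59.7 to 104.4. Their log2 fold changes were 0.52 (adjusted p = 0.657) and 0.28 (SE 0.201). The overlap came from METTL5-cKO library 3 alone for Cd68 and was wide for Lyz2. C1qa ranged from 27.1 to 34.7 CPM against 30.5 to 45.5 and C1qb from 23.8 to 32.2 against 29.6 to 39.5, with log2 fold changes of 0.29 and 0.24. Cd14, at 0.731 to 3.45 CPM in control and 1.53 to 5.09 in METTL5-cKO hearts, was too variable to resolve (0.58, SE 0.525).

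Whether the effect of the genotype after TAC differed from that at 3 months was tested directly, as an interaction in a fit of both tables. None of the 10 markers was called by edgeR, 0 had an unadjusted p under 0.05 and DESeq2 called 0, beside 0.00586% of the 17070 genes called by edgeR and 11.8% with an unadjusted p under 0.05. The estimates ran from -0.35 (Cd14) to 0.31 (Adgre1, SE 0.192, interval -0.10 to 0.72, adjusted p = 0.568). For Mrc1 and Lyz2, also called after TAC, they were 0.065 (SE 0.241) and 0.22 (SE 0.245). The calls after TAC are thus not shown to be particular to the operated hearts, and the intervals leave room for a difference in either direction.

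Between tables, hearts after TAC were set against the 3-month hearts of the same genotype. The surgery and the table cannot be told apart here, and these contrasts share their groups with the comparisons above. In control hearts 2 of the 10 markers were higher after TAC, beside 0.340% of all genes called higher: Cd163, from 10.1 ± 2.12 to 17.1 ± 2.103 CPM, with a log2 fold change of 0.76 (SE 0.135, interval 0.47 to 1.05, adjusted p = 0.0273), and C1qc, from 25.2 ± 1.97 to 40.0 ± 6.20 CPM (0.67, SE 0.133, adjusted p = 0.0392). All 10 estimates were positive, beside 48.5% of all genes, between 0.33 (Lyz2) and 1.16 (Cd14, SE 0.525, adjusted p = 0.263). None was called at an absolute log2 fold change over 1, beside 0.158%. These calls were sensitive to single libraries, as Cd163 was lost in 7 and C1qc in 9 of the 16 fits that left out 1 library. Some of the 16 left out a METTL5-cKO library, which is not compared in this contrast. With a control library left out, Cd163 kept its call only without library 1 at 3 months, and C1qc kept it in no fit.

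In METTL5-cKO hearts 7 of the 10 markers were higher after TAC than at 3 months, beside 10.2% of all genes called higher. All 10 estimates were positive, beside 49.1% of all genes, and 0 were called at an absolute log2 fold change over 1, beside 4.84%. Of those called, the C1q chains had the highest estimates, with log2 fold changes of 0.79 for C1qa (adjusted p = 0.00401), 0.77 for C1qb (adjusted p = 0.00315) and 0.75 for C1qc (adjusted p = 0.00125). C1qa went from 37.6 ± 7.57 to 65.0 ± 11.02 CPM. Adgre1 (0.70, SE 0.133, adjusted p = 0.00216), Lyz2 (0.55, adjusted p = 0.0361), Csf1r (0.47, adjusted p = 0.0215) and Cd163 (0.46, adjusted p = 0.0233) were also called. Mrc1 (0.49, adjusted p = 0.0546), Cd68 (0.46, adjusted p = 0.133) and Cd14 (0.81, SE 0.504, adjusted p = 0.289) were not. Of the 16 fits that left out 1 library, Lyz2 lost its call in 6 and Csf1r and Cd163 in 3 each, while Mrc1 gained one in 3. All of these losses came with a METTL5-cKO library left out, and the fits without a control library do not change the groups compared here. Lyz2 was also not called by edgeR without a filter on low counts (adjusted p = 0.0643).

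**Figure D3:**
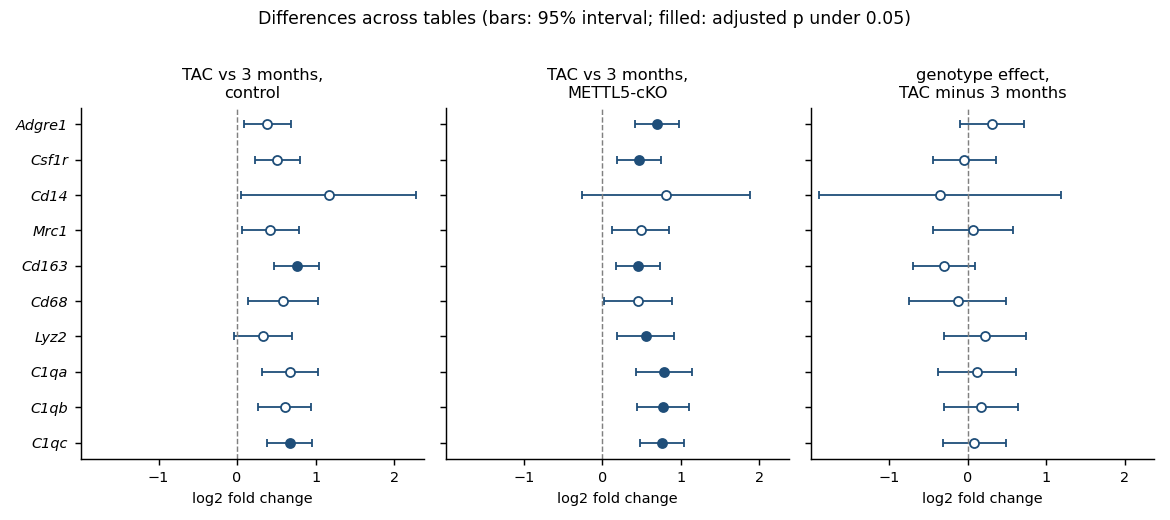
Log2 fold change of each macrophage marker (points, with 95% intervals) after TAC against 3 months in control hearts, the same in METTL5-cKO hearts, and the genotype effect after TAC minus that at 3 months. Filled points have an adjusted p under 0.05. There are 2 filled points in control hearts, 7 in METTL5-cKO hearts and 0 for the difference of the genotype effects.

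At 1 month, METTL5-KO and control hearts were not separated by any marker. None of the 10 was called by edgeR (0 by DESeq2), and 1, Cd14, had an unadjusted p under 0.05. Among all 16329 genes, 0.00612% were called and 4.57% had an unadjusted p under 0.05. For 0 of the 10 did the groups not overlap, beside 3.01% of all genes. Cd14 was at 1.79, 0.818, 0.833 and 0.500 CPM in control and at 3.62, 3.49, 2.73 and 0.785 in METTL5-KO hearts, so that 3 of the 4 METTL5-KO libraries were above every control. Its log2 fold change was 1.40 (SE 0.502, interval 0.27 to 2.53, adjusted p = 0.973, exact p = 0.114). The other 9 estimates lay between -0.39 (Lyz2, SE 0.337) and 0.42 (Cd163, SE 0.298).

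Several of these small estimates rested on control library 1. Lyz2 was at 124.3, 36.8, 65.1 and 58.9 CPM in the controls and at 36.7, 55.7, 66.8 and 59.2 in METTL5-KO hearts, and Adgre1 at 7.93, 3.07, 3.33 and 3.78 CPM against 3.33, 4.28, 5.03 and 5.07. In both genes library 1 lay far above the other controls. Without it, the log2 fold changes of Adgre1, Lyz2 and C1qb turned from -0.047, -0.39 and -0.13 to 0.39, 0.030 and 0.089. Those of the other 7 moved from 1.40 to 1.89 for Cd14, from 0.42 to 0.73 for Cd163, from 0.21 to 0.32 for Mrc1, from 0.055 to 0.17 for Csf1r, from 0.054 to 0.32 for Cd68, from 0.0061 to 0.14 for C1qa and from 0.17 to 0.34 for C1qc. All 10 were then positive, and none was called, with adjusted p from 0.663 (Cd14) to 0.993 (Lyz2). Of the C1q chains, C1qb was at 46.4 ± 13.9 CPM in control and 42.6 ± 5.57 in METTL5-KO hearts, with control library 1 at 65.0, C1qa at 47.2 ± 9.84 CPM in control and 47.4 ± 4.79 in METTL5-KO hearts and C1qc at 33.999 ± 8.49 and 38.4 ± 2.66. Csf1r was at 25.6 ± 4.42 CPM in control and 26.6 ± 1.75 in METTL5-KO hearts, with an interval of -0.24 to 0.35 for the log2 fold change.

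Other genes of macrophages were read from fixed lists beside the 10 markers. Of all genes tested after TAC, 6.57% were called higher. After TAC, 6 of 19 further macrophage genes were called higher in METTL5-cKO hearts and 0 lower, with a median log2 fold change of 0.43. They were Ctss, the lysosomal protease cathepsin S (0.70, SE 0.157, adjusted p = 0.0231), the Fc receptor Fcgr3 (0.68, adjusted p = 0.0289), the pore-forming protein Mpeg1 (0.75, adjusted p = 0.0317), Tyrobp, Laptm5 and Lgmn. Ctss was at 12.5, 10.98, 12.6 and 9.44 CPM in control hearts and at 24.5, 18.7, 16.9 and 14.9 in METTL5-cKO hearts, and its groups did not overlap. The extracellular chain that C1q joins was also read: 3 of the 5 tested partners of C1q were higher, C1ra, its protease (0.73, SE 0.104, adjusted p = 0.00744), C1rb (0.78, adjusted p = 0.0146) and Serping1, the inhibitor of the complex (0.96, adjusted p = 0.0155). C1ra was at 6.71 to 8.32 CPM in control and 11.4 to 14.8 in METTL5-cKO hearts, and Serping1 at 74.7 to 86.1 and 110 to 226. These partners are made by many cell types, fibroblasts among them. Of the partners of CD14, 2 of 9 were called, Lbp, which delivers lipopolysaccharide to CD14 (1.38, adjusted p = 0.0142), and the receptor Tlr4 (0.64, adjusted p = 0.0490). A further list held Csf1 and Il34 together with Csf2 and its receptor chains Csf2ra and Csf2rb, which serve CSF2 and not CSF1 or IL34. Of its 4 tested genes, 0 were called by edgeR and 1 by DESeq2. An unadjusted p under 0.05 was found for 1, beside 31.0% of all genes. The closest to the threshold was Csf2rb (0.99, adjusted p = 0.0572), while Csf1 was at 0.063 (adjusted p = 0.888) and Il34 at -0.20 (adjusted p = 0.408).

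Genes of monocytes and recruited macrophages were read separately from those of resident cardiac macrophages, and the difference between these lists was not tested. Of the recruited list 6 of 9 tested genes were called higher, beside 6.57% of all genes, with a median log2 fold change of 1.19. Spp1, which encodes osteopontin, had 2.44 (SE 0.427, adjusted p = 0.0127), Gpnmb 1.01 (adjusted p = 0.0148) and Fn1, fibronectin, 1.15 (adjusted p = 0.0154), and Lgals3, Vcan and Trem2 were the others. The tested genes of this list that were not called were Ccr2 (1.23, adjusted p = 0.0626), Cd9 (0.14, adjusted p = 0.506) and Ly6c2, which was lower (-0.45, adjusted p = 0.0766). Fn1, Vcan and Spp1 are also expressed by fibroblasts or myocytes under stress. Of the resident list 2 of 9 were called, F13a1 (0.45, adjusted p = 0.0195) and the complement receptor Vsig4 (1.38, adjusted p = 0.0218), and its median was 0.065. Spp1 stayed low, at 0.202 to 0.431 CPM in control and 0.581 to 2.05 in METTL5-cKO hearts. It passed the filter on low counts through the METTL5-cKO group, where it was high, so its fold is uncertain and its call is no separate support. Of the pan-leukocyte markers 1 of 6 was called, the integrin chain Itgb2 (0.58, adjusted p = 0.0351), and their summed level was 21.97 to 31.2 CPM in control and 28.3 to 43.7 in METTL5-cKO hearts.

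Markers of the other cells of the heart moved after TAC as well, where 6.57% of all genes were called higher. Of the fibroblast markers, 5 of 6 were higher in METTL5-cKO hearts, led by Postn, periostin (3.64, SE 0.569, adjusted p = 0.00948), Col1a1 (1.71, adjusted p = 0.0194) and Dcn (0.77, adjusted p = 0.0197). Their summed level was 417 to 513 CPM in control and 1998, 1361, 1340 and 632 CPM in METTL5-cKO libraries 1 to 4. Within the METTL5-cKO group, library 1 was the highest and library 4 the lowest in this sum, as in Lyz2, Csf1r, Mrc1 and Cd68. The other markers did not have this order. Adgre1 was highest in library 3, the C1q chains were lowest in library 3, Cd14 was lowest in library 2 and Cd163 was lowest in library 1. Of all genes tested 6.10% were called lower. All 5 endothelial markers were lower, with Tek at -0.54 (adjusted p = 0.00851) and Kdr at -0.70 (adjusted p = 0.00953), and the sum was 525 to 616 CPM in control and 362 to 483 in METTL5-cKO hearts. Of the cardiomyocyte markers 2 of 8 were lower, Tnni3 (-0.84, adjusted p = 0.0155) and Myl2 (-0.75, adjusted p = 0.0182), and the sum was 38952 to 43381 CPM and 28701 to 37106. The sum of the 10 macrophage markers was 258 to 343 CPM in control and 354 to 463 in METTL5-cKO hearts, without overlap. The part of these shifts in cell make-up in the macrophage result was not tested. In the other 7 lists, of T cells, B cells, neutrophils, dendritic cells, mast cells, smooth muscle and erythroid cells, 0 of the tested genes were called by edgeR. DESeq2 called 1 dendritic, 2 smooth muscle and 1 erythroid gene. An unadjusted p under 0.05 was found for 3 of 4 B cell and 5 of 5 erythroid genes, with negative estimates, for 2 of 3 dendritic and 2 of 5 smooth muscle genes, and for 0 of the T cell, neutrophil and mast cell genes. Over all genes that share was 31.0%.

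**Figure D4:**
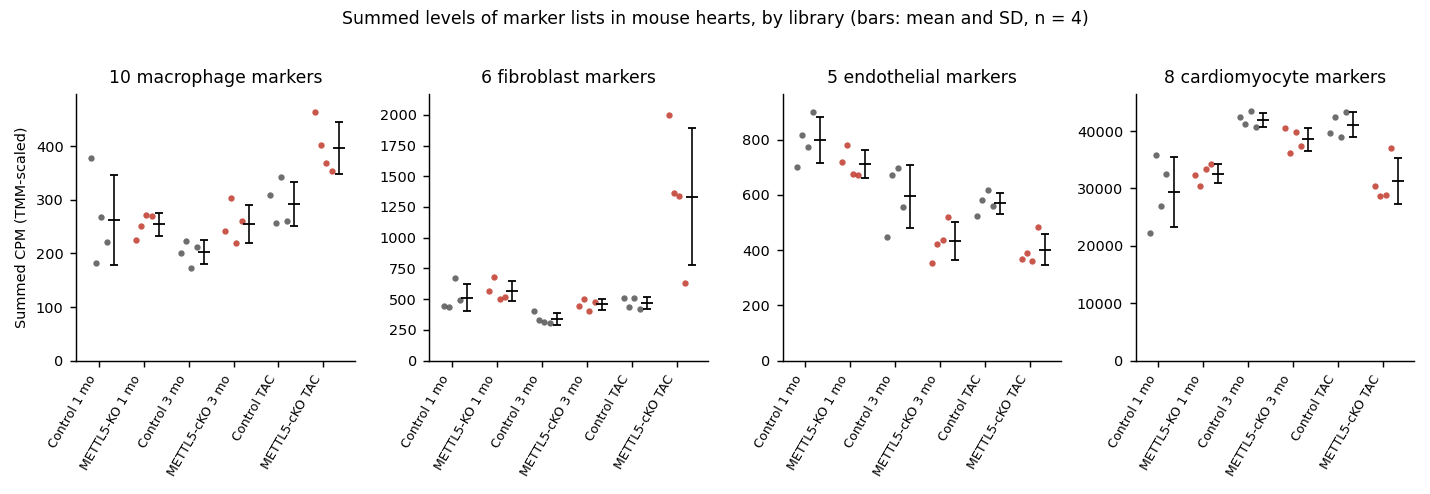
Summed level (CPM, linear axis from 0) of the 10 macrophage, 6 fibroblast, 5 endothelial and 8 cardiomyocyte markers by library in the 6 mouse groups, with grey controls and red METTL5-KO or METTL5-cKO hearts. After TAC the macrophage sum was 258 to 343 CPM in control and 354 to 463 in METTL5-cKO hearts, and the fibroblast sum 417 to 513 and 632 to 1998.

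At 3 months and at 1 month, 0 of the 101 tested genes of these other lists were called by edgeR in either table. At 3 months 28 had an unadjusted p under 0.05 and DESeq2 called 6, and at 1 month the numbers were 10 and 1. Of all genes, 7.05% had an unadjusted p under 0.05 at 3 months and 4.57% at 1 month. The estimates at 3 months were positive for 16 of 19 further macrophage genes (median 0.24), for 8 of 8 genes of the recruited list (median 0.42), for 5 of 5 partners of C1q (median 0.40) and for 6 of 6 fibroblast markers (median 0.51). They were negative for 5 of 5 endothelial markers (median -0.42). Among all genes, 50.3% of the estimates were positive. Fibroblast and endothelial markers thus lay on the same sides at 3 months as after TAC, and their part in the estimates of the macrophage markers was not tested. The summed level of the macrophage markers at 3 months was 172 to 223 CPM in control and 219 to 303 in METTL5-cKO hearts, with a small overlap.

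After TAC against 3 months, in METTL5-cKO hearts 8 of 19 further macrophage genes were higher and 1 lower, and 6 of 9 of the recruited list, 2 of 9 of the resident list and 5 of 6 fibroblast markers were higher. Of all genes, 10.2% were called higher in this contrast. The recruited list holds Spp1, and the limit given above for its low counts applies here too. Fcgr3 led the macrophage genes (0.89, adjusted p = 0.0013). The gene that was lower, Cd36 (-0.49), encodes a fatty acid transporter that cardiomyocytes and endothelial cells express strongly. In control hearts 0 of the tested genes of these lists were called by edgeR, beside 0.340% of all genes called higher. Their estimates were positive for 17 of 19 further macrophage genes, 7 of 9 of the recruited list, 7 of 9 of the resident list and 6 of 6 fibroblast markers.

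In NRVMs, whose labelled cell type is the cardiomyocyte, the macrophage markers are those of another cell type. Of the 10 markers, 6 passed the filter on low counts, and of these 3 were lower with AdMETTL5 and 0 higher: Lyz2, Adgre1 and Mrc1, which fell to 0.559, 0.723 and 0.725 of the AdGFP level. Of the 15041 genes tested, 52.8% were called and 25.7% were called lower and 27.1% higher, so a call distinguishes a gene little in this comparison. The other 3 tested markers were not called, and the median log2 fold change of the 6 was -0.25, beside -0.0022 over all genes. None of the 6 was past an absolute log2 fold change of 1, beside 5.85% of all genes. The groups of the 3 that fell did not overlap, as for 23.1% of all genes in that direction.

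Lyz2 was at 31.3, 30.9, 37.4 and 31.0 CPM in AdGFP libraries and at 16.2, 17.7, 20.2 and 18.8 in AdMETTL5 libraries. The groups were far apart, and the log2 fold change was -0.84 (SE 0.0838, interval -1.02 to -0.66, adjusted p = 6.07e-06, exact p = 0.0286). Adgre1 was at 40.9, 41.0, 51.5 and 47.7 CPM with AdGFP and at 28.5, 29.9, 33.2 and 39.4 with AdMETTL5. Its level was above that in the mouse hearts, normalised separately, where it was at most 8.73 CPM, and the groups did not overlap (log2 fold change -0.47, SE 0.104, adjusted p = 0.00247). Mrc1 was at 2.91, 3.19, 2.86 and 2.44 CPM with AdGFP and at 2.29, 2.15, 1.97 and 1.84 with AdMETTL5 (log2 fold change -0.46, SE 0.147, adjusted p = 0.0185). Its call was lost with DESeq2 (adjusted p = 0.0578), with scaling by library size alone (-0.33, adjusted p = 0.0762) and without AdGFP library 2 or AdMETTL5 library 4.

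Csf1r, in contrast, was at 7.29, 8.85, 10.5 and 8.31 CPM with AdGFP and at 8.43, 7.65, 8.20 and 9.67 with AdMETTL5, and its log2 fold change was -0.041 (SE 0.118, adjusted p = 0.793). With scaling by library size alone it was 0.093. Cd14 was at 13.3, 11.8, 14.3 and 12.9 CPM against 16.1, 15.2, 13.98 and 12.1, and Cd68 at 8.90, 9.09, 6.71 and 7.97 CPM against 9.31, 10.3, 10.6 and 8.46. Their log2 fold changes were 0.13 (adjusted p = 0.263) and 0.24 (adjusted p = 0.0865), and both were called higher with library size alone (Cd14 0.27, adjusted p = 0.0382, and Cd68 0.38, adjusted p = 0.00769). That scaling moves the median of all genes by 0.14 on the log2 scale. The direction was thus not shared by the 6 tested markers.

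The 4 markers left out by the filter were at the edge of detection. Cd163 had 0 counts in all 8 libraries, which allows a level of up to 0.0422 CPM over the AdGFP group and 0.0518 over the AdMETTL5 group (3 counts in the summed libraries, for counting error only). C1qa had 38 counts over the AdGFP libraries and 3 over the AdMETTL5 libraries, without overlap of the groups, a ratio of 10.3 with a 95% counting interval of 3.27 to 52.2 (exact permutation p = 0.0286). C1qc had 38 and 14 counts (ratio 2.21, 1.17 to 4.42, exact p = 0.171). C1qb had 12 and 0 counts. Taking the 12 as exact, it was at least 3.26-fold lower with AdMETTL5 against a floor of 3 counts over the group. With the counting error of the 12 counts the lower 95% limit of the ratio was 2.26, and the groups overlapped (exact p = 0.429). The C1q transcripts, among the most abundant of the markers per length in the mouse hearts, did not exceed 0.662 CPM for C1qa in any of these cultures.

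**Figure D5:**
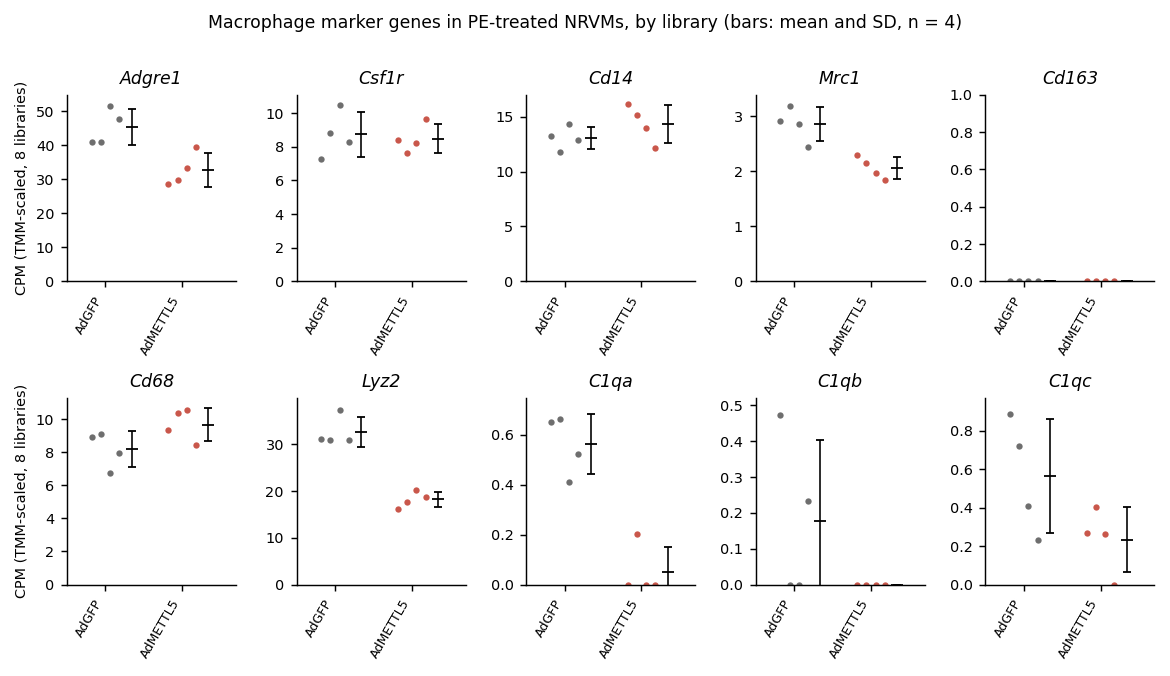
Level of each macrophage marker (CPM, linear axis from 0) in PE-treated NRVMs with AdGFP (grey) or AdMETTL5 (red). Dots are libraries (4 per group) and bars the mean ± SD, cut at 0. Lyz2, Adgre1, Mrc1 and C1qa, the last at under 1 CPM, do not overlap between the groups, and Cd163 is at 0 in all 8 libraries.

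Among the further macrophage genes in NRVMs, 2 of 14 tested were higher and 6 lower with AdMETTL5. Of all genes, 27.1% were called higher and 25.7% lower, and the counts of the lists that follow stand beside these shares. Stab1, the scavenger receptor stabilin-1, had 65, 56, 65 and 70 counts with AdGFP and 20, 0, 0 and 0 with AdMETTL5. It passed the filter through the AdGFP group and was called lower, and no fitted fold is given because 3 of the 4 AdMETTL5 libraries are at 0. The transcription factor Irf8 (0.85, adjusted p = 5.72e-04) and the scavenger receptor Msr1 (0.74, adjusted p = 0.00183) were higher. In the list of Csf1, Il34 and the CSF2 genes, Csf1 was higher (0.44, adjusted p = 1.66e-05) and Il34 was not called (0.024, adjusted p = 0.938). The CSF2 receptor chains Csf2rb (-0.76, adjusted p = 7.38e-07) and Csf2ra (-0.38, adjusted p = 0.00124) were lower. Of the 7 tested partners of CD14, 2 were higher, Tlr2 (0.59, adjusted p = 3.43e-05) and Myd88 (0.43), and 2 lower, Tlr4 (-0.49, adjusted p = 0.0311) and Lbp (-0.16, adjusted p = 0.0457). Of the resident list 2 of 4 tested were lower, Folr2 (-0.90, adjusted p = 0.00737) and Lyve1 (-0.64, adjusted p = 0.0332), and of the recruited list 4 of 7 were higher, with Lgals3 at 0.91 and Spp1 at 0.78, and 1 lower. All 3 tested partners of C1q were higher, between 0.15 (C1r) and 0.44 (C1s). The pan-leukocyte markers gave 0 calls of 5 in edgeR (0 at an unadjusted p under 0.05 and 0 by DESeq2), with Itgam at -0.11 and Itgb2 at -0.08.

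Other cell markers also differed between AdMETTL5 and AdGFP, in a comparison where 27.1% of all genes were called higher and 25.7% lower. All 8 cardiomyocyte markers were lower with AdMETTL5, with Myl2 at -2.34 and Myh6 at -1.53, and their sum was 30219 to 38465 CPM with AdGFP and 12758 to 14228 with AdMETTL5. Of the fibroblast markers 5 of 6 were lower, and their sum was 9418 to 9906 CPM with AdGFP and 7549 to 8316 with AdMETTL5. Of the endothelial markers 1 of 4 was higher, Kdr (0.86), and their sum was 38.0 to 41.4 CPM with AdGFP and 50.5 to 55.1 with AdMETTL5. Of the smooth muscle and pericyte markers 2 of 5 were higher, Acta2 (0.25) and Tagln (0.24), and 1 lower, Pdgfrb (-0.29). Cd4, from the T cell list, was lower and Kit, from the mast cell list, higher. Each was the only gene of its list that passed the filter, so neither stands for a cell type here. B cell markers summed to 0 to 0.233 CPM and neutrophil markers to 0 to 0.584 CPM in the 8 libraries. The sum of the macrophage markers was 106 to 124 CPM and 81.1 to 90.4. The part of the cell make-up and of the lower depth of the AdMETTL5 libraries in these differences was not tested.

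The markers varied together from library to library to differing degrees. Over the 24 mouse libraries, with the group means removed, the median Pearson correlation of the 45 pairs of markers was 0.53 (range 0.11 to 0.93), and without control library 1 at 1 month it was 0.37 (-0.16 to 0.91). Cd68 (median 0.75 with the other 9), C1qc (0.71) and Lyz2 (0.71) followed the rest most closely, and Mrc1 (0.34) and Cd14 (0.22) least. Without that library these medians were 0.66, 0.62, 0.62, 0.16 and 0.091 in the same order. Those of Adgre1 and Cd163 fell from 0.61 to 0.37 and from 0.45 to 0.18, so Cd163, Mrc1 and Cd14 then followed the rest little. The genes whose levels were most like the mean of the 10 were Laptm5 (r = 0.91), Ctss (0.89), Fcgr3 (0.89), P2rx4 (0.89), Clec4a1 (0.88), Fcgr2b (0.87), Pld4 (0.86) and Mpeg1 (0.86), beside a median of -0.0081 over 17597 genes. Without that library they were between 0.74 and 0.84. These correlations are a description, since the points share libraries, depth and cell make-up.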

How the data were processed

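RNA sequencing of 24 mouse heart libraries and 8 NRVM libraries was taken from 4 deposited tables. According to the submitters' processing notes, the authors aligned the reads with HISAT2 (version 2.0.4) to GRCm38 or Rnor_6.0 and used StringTie (version 2.1.4). The deposited values were taken as estimated counts per gene. They are whole numbers without scaling, so rounding changed nothing, and the tests planned for plain counts were applied to them as such. Depth was 19899033 to 21804907 counts per mouse library and 14324700 to 18085339 per rat library. The annotation release and strandedness are not given in the sources used here. Groups were taken from the labels. Columns were matched to single samples at 1 month and to groups only in the other tables.

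Each comparison was fitted over all genes in edgeR 4.0.16 (R 4.3.3, limma 3.58.1) with filterByExpr (minimum count 10 and minimum total count 15), TMM library sizes, its quasi-likelihood test and p-values adjusted after Benjamini and Hochberg, and a gene was called at an adjusted p under 0.05. The 3-month and TAC tables were also fitted together for the interaction and the contrasts with 3 months. For single genes the difference of the group means of log2 CPM, with a prior count of 2, was set against all 70 labellings of the libraries (exact permutation test, two-sided), for which the smallest p is 0.0286. Exonic lengths and mouse positions came from the GRCm38 annotation, and promoters from RefSeq (GRCm38.p6). The alternatives were DESeq2 1.42.0, its size factors in edgeR, library size alone, no filter, at least 10 counts in every library, an absolute log2 fold change over 1, a block for the replicate number in the 1-month table, and leaving out single libraries. The correlations without control library 1 were added after the data were seen.

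At 1 month the numbers did not pair the samples: the deviations of same-numbered libraries correlated at 0.25, 0.11, -0.079 and 0.084. Chi-square over degrees of freedom was at least 2.16 for every pair of libraries in a group, so none was counted as a duplicate. On simulated data with 100 genes changed by 1 on the log2 scale, 68 were recovered at 1 month, 86 at 3 months, 85 after TAC, 99 in NRVMs and 65 for the interaction. In the same order, 14, 11, 8, 11 and 9 unchanged genes were called. Smaller changes, such as most markers had, and genes of low counts were not among the changed genes, so these rates do not apply to them. The 10 markers and the gene lists were chosen with earlier results of these data known. The rule for named genes took the 10 markers in every comparison, the 3 genes with the smallest adjusted p of each other list, and the 8 genes most correlated with the markers' mean. Values of the other lists' genes are printed after TAC and in NRVMs, where lists had calls. Lyz1, Cd36, the uncalled genes of the recruited list after TAC and the called genes named without a value were added after their values were seen. Sequences on chromosome 18 and promoters of genes outside the RefSeq table are not reported here.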

Additional observations from a re-analysis of the deposited data

Results flagged for a closer look

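Within groups of 4 libraries, 77 values of the markers were tested for a library far from the others by Dixon's ratio at the 95% level, and 7 were flagged. Chance flags about 1 in 20 groups. At 1 month, Adgre1 in control library 1 was high, with 7.93 CPM, and C1qb in METTL5-KO library 4 was high, with 50.9 CPM. In the controls at 3 months, Mrc1 was high in library 1, with 17.2 CPM, while Adgre1 and C1qc were low in library 3, with 2.74 and 22.2 CPM. Control library 3 at 3 months was the lowest of its group for 7 of the 10 markers. Both genes for which it was flagged, Adgre1 and C1qc, are among the 3 whose groups did not overlap at 3 months. In NRVMs, Lyz2 was high in AdGFP library 3, with 37.4 CPM, and C1qa was high in AdMETTL5 library 2, with 0.201 CPM, the only AdMETTL5 library with a count of that gene.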

How the results depend on the processing

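Over all alternatives, 1107 values of the markers were recomputed, of which 1022 kept their direction and their side of the threshold, 45 lost a call, 16 gained one and 24 turned sign (21 of them when a library was left out). At 3 months all 130 values kept their sign and stayed uncalled, but with a library left out Lyz2 ran from 0.080 (without METTL5-cKO library 2) to 0.40, Cd14 from 0.24 (without METTL5-cKO library 3) to 0.92 (without control library 4), C1qa from 0.18 to 0.37 and C1qb from 0.14 to 0.31. Calls among the 10 markers after TAC were 3, and 5 with library size alone, 0 with an absolute log2 fold change over 1, and 1 to 4 with a library left out (1 without control library 2, control library 4 or METTL5-cKO library 2). Mrc1 lost its call in 4 and Lyz2 in 5 of 8 such fits, and DESeq2 added C1qc (adjusted p = 0.0294). In NRVMs there were 3 calls, and 0 with an absolute log2 fold change over 1. In control hearts after TAC against 3 months the count was 2, and 1 with library size alone, 5 with DESeq2, 0 without a filter, 0 with an absolute log2 fold change over 1 and 0 to 3 with a library left out. In METTL5-cKO hearts it was 7, and 0 with an absolute log2 fold change over 1 and 4 to 8 with a library left out (4 without METTL5-cKO library 2 after TAC). The cause was not tested, beyond fewer samples where a library was left out. Shares of all genes called were counted in the main fits, also for the rule on the fold change. The counts under the other alternatives have no such share beside them.

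Sign changes were of small estimates that did not pass. With a block for the replicate number in the 1-month table, which changed no call, Adgre1 was 0.051. With library size alone, Csf1r was 0.093 in NRVMs and 0.043 in the interaction. With a library left out, the log2 fold changes at 1 month ran from -0.20 to 0.39 for Adgre1, -0.037 to 0.17 for Csf1r, -0.093 to 0.32 for Cd68, -0.61 to 0.030 for Lyz2, -0.10 to 0.14 for C1qa and -0.24 to 0.089 for C1qb. After TAC Cd14 ran from -0.11 to 0.52, and in NRVMs Csf1r ran from -0.12 to 0.057. In the interaction they ran from -0.14 to 0.049 for Csf1r, -0.13 to 0.17 for Mrc1, -0.26 to 0.013 for Cd68, -0.0028 to 0.27 for C1qa and -0.025 to 0.19 for C1qc. No paired analysis was possible because the column names of the other 3 tables do not carry the replicate numbers of the labels in both groups. Depth limits Cd14 in the mouse hearts, with 9 to 205 counts in a library, and the C1q chains and Cd163 in NRVMs.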
